A study of Mus musculus with 6 samples.

Results

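The genes described here are 10 transcripts of the FoxO branch of insulin and nutrient signalling. They are the forkhead factors Foxo1, Foxo3 and Foxo4 and 7 genes known to be switched on by FoxO factors, by fasting or by changes in glucose supply, Depp1, Pdk4, Txnip, Arrdc4, Sesn1, Sesn3 and Ccng2. They were chosen by gene name out of the 56884 gene IDs of the tables, with their levels in these libraries already known, so their values are given as a description and without a test. All 10 were among the 15426 genes with a TPM (a share of the transcripts of a library, corrected for transcript length) of at least 0.5 in 3 or more libraries, and Depp1 met that minimum only through the PPARγ2 K382Q libraries.

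RNA-seq was performed on a mouse cell line from the stromal vascular fraction (SVF) of subcutaneous white adipose tissue (scWAT), a fraction that holds the precursors of beige adipocytes. The line was transduced with a pMXs-Puro retrovirus carrying HA-tagged mouse PPARγ2, the adipogenic nuclear receptor, in which lysine 382 was replaced either by glutamine (K382Q, a mimic of acetylated lysine) or by arginine (K382R, a mimic of deacetylated lysine), and selected with puromycin into stable lines, whose number per mutant is not stated. Both groups, of 3 libraries each, were collected on day 2 in the same beige induction medium with isobutylmethylxanthine, indomethacin, dexamethasone, insulin, T3 and the PPARγ agonist rosiglitazone. Cells without a PPARγ2 mutant, with wild-type PPARγ2 or without the medium were not analysed here, so every level below was measured under insulin, dexamethasone and rosiglitazone. The comparison asks how the acetylation state that the mutants mimic bears on transcript levels early in beige differentiation, and a difference is one between the mutants. The replicates are labelled as biological, but nothing says that they came from separately transduced cultures, and p-values then measure only the spread between these libraries.

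FoxO factors are transcription factors that the kinase AKT phosphorylates when insulin is present. Phosphorylated FoxO is held in the cytoplasm by 14-3-3 proteins, and in fasted cells it enters the nucleus and switches on genes that save glucose, slow the cell cycle and start autophagy. In adipose precursors FOXO1 is known to restrain differentiation and to bind and repress PPARγ, and several of its targets, Pdk4 among them, are also targets of PPARs and of the glucocorticoid receptor. Transcript levels of the factors say nothing of their phosphorylation or location, which were not measured.

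For Txnip, Arrdc4 and Depp1, the 250 bases upstream of the start of the canonical transcript are printed below (GRCm39, 5′ to 3′ on the gene's strand). Txnip and Arrdc4 are shown because they encode paralogous α-arrestins with a shared glucose response but differed widely in level, and Depp1 because it was nearly silent in 1 group. Capitals mark matches, on either strand, to the FoxO core GTAAACA, the E-box CACGTG bound by MondoA and ChREBP with MLX, and the E-box variant CACGAG found in carbohydrate response elements. The 4th motif searched, the direct repeat 1 bound by PPAR and RXR, had no match in the 10 windows. None of the motifs overlaps another as matched here.

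Txnip, chr3:96465017-96465266, plus strand: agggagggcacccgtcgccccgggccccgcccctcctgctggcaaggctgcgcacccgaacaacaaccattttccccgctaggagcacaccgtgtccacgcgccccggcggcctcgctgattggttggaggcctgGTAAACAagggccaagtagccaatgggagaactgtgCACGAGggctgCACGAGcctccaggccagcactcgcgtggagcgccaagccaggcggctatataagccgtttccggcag
Arrdc4, chr7:68399000-68399249, minus strand: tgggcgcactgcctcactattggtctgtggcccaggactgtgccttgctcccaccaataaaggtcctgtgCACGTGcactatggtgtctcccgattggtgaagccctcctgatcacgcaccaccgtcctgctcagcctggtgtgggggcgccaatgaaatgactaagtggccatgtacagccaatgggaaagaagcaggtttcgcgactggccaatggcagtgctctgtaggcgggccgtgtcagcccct
Depp1, chr6:116627320-116627569, plus strand: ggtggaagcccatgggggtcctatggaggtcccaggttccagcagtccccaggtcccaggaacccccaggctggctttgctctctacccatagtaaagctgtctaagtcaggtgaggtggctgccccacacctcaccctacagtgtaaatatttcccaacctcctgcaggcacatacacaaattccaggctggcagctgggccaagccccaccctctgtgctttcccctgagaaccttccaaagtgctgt

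The FoxO core was found in 1 of the 10 windows, that of Txnip, 115 to 109 bases before its start, against 2.23% of the same windows of 12183 protein-coding genes tested. CACGAG stood 79 to 74 and 68 to 63 bases before the start of Txnip, against 6.78% of windows with at least 1 match. CACGTG stood 180 to 175 bases before the start of Arrdc4, against 7.73% of windows. The direct repeat was in 0.0246% of windows. Txnip and Arrdc4 therefore carried different letters of the E-box in this window, and the windows of Foxo1, Foxo3, Foxo4, Depp1, Pdk4, Sesn1, Sesn3 and Ccng2 held none of the 4 motifs as spelled. The FoxO core was searched only as GTAAACA, so other spellings were not counted. GTAAATA, for example, stands in the Depp1 window, and its share over all windows was not determined. A match is a description of the letters and not evidence of a bound site. The windows end at the start of the canonical transcript, so those of Sesn1 and Sesn3 lie inside the gene spans given below. That of Depp1 lies inside Rassf4 and that of Txnip inside Gm15441, both genes on the opposite strand. Sequence beyond the windows was not searched.

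The 3 FoxO factor transcripts had similar levels in both mutants. Foxo1 (ENSMUSG00000044167.7, chr3:52175757-52260642, plus strand), the factor most studied in adipose tissue, was measured at 14.6, 14.3 and 14.3 TPM in PPARγ2 K382Q-overexpressing cells and at 15.01, 15.1 and 17.0 TPM in PPARγ2 K382R-overexpressing cells. The K382Q libraries all lay below the K382R libraries, with means of 14.4 ± 0.174 and 15.7 ± 1.16 TPM (SD, n = 3), a log2 fold change of -0.12. The median gene tested had a log2 fold change of -0.14 in TPM, close to that of Foxo1, and the order of the groups did not hold on other scales. After median-ratio scaling, which sets the median gene near 0, the value for Foxo1 was 0.03, after quantile normalization it was 0.05, and in FPKM it was -0.04, with overlapping groups on all 3.

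Foxo3 (chr10:42057837-42152751, minus strand), a factor linked to autophagy and stress resistance, was at 17.0, 18.7 and 16.6 TPM with K382Q and at 16.7, 17.1 and 16.7 TPM with K382R. Foxo4 (chrX:100298134-100304479, plus strand) was at 20.2, 19.6 and 18.9 TPM with K382Q and at 17.2, 18.4 and 20.02 TPM with K382R. Both sets of libraries overlapped in TPM, and the log2 fold changes were 0.04 for Foxo3 and 0.08 for Foxo4. Without K382Q replicate 2 the value for Foxo3 was -0.01. On the other 3 scales the K382Q libraries of both genes lay above the K382R libraries, with 0.19 for Foxo3 and 0.22 for Foxo4 after median-ratio scaling. Summed, the 3 factors came to 51.3 ± 1.48 TPM with K382Q and 51.1 ± 2.46 TPM with K382R (SD, n = 3). Foxo1 supplied 27.2% to 28.7% of that sum in the K382Q libraries and 29.8% to 31.7% in the K382R libraries, so its part was smaller in every K382Q library, and this share does not depend on the scaling between libraries. Foxo6, the remaining family member, known mainly from brain, was at 0.735 TPM with K382Q and 0.897 TPM with K382R, and the 95% interval of its log2 fold change ran from -0.66 to 0.28.

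Depp1 (ENSMUSG00000048489.13, chr6:116627570-116629755, plus strand), an autophagy regulator induced by FoxO factors, was present with K382Q and nearly absent with K382R. Its level was 11.2, 11.5 and 15.3 TPM in the K382Q libraries, and it was listed at 0, 0.105 and 0 TPM in the K382R libraries. The read coverage per base behind these values was 27.1, 34.9 and 36.7 with K382Q and 0, 0.330 and 0 with K382R. All 3 K382Q libraries thus held Depp1 at about the level of Foxo1, while its coverage in the K382R libraries was at or near 0. Among all genes tested, Depp1 was the single gene with a mean of at least 10 TPM in K382Q cells that was listed at 0 in 2 or more K382R libraries, and the converse held for 2 predicted genes, Gm20390 and Gm49450. A set of 10 widely used genes, Actb, Gapdh and Tbp among them, was above 0 in all 6 libraries. Their mean levels ran from 15.1 TPM for Tbp to 2761 TPM for Rpl19, where a zero was hardly possible. That check therefore does not bear on how the zeros of Depp1 arose.

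The size of the Depp1 difference depended on the pseudocount and on the unit, as it must with a group near 0. On the log2(TPM + pseudocount) scale it was 4.62 with 0.5, 3.71 with 1 and 6.64 with 0.1. With a pseudocount of 0.5 it was 3.46 in FPKM and 5.81 in coverage. Depp1 lies inside Rassf4 (chr6:116609969-116650913), a gene on the opposite strand, and reads from the pair cannot be told apart where strand was not used in counting, which the sources used here do not state. Rassf4 was at 3.11, 2.197 and 2.996 TPM with K382Q and at 0.294, 0.396 and 0.489 TPM with K382R, lower than Depp1 in every K382Q library and higher in every K382R library. Of the other 9 genes, Foxo1, Sesn1 and Txnip overlap annotated genes as well, and of those only the Txnip partner Gm15441 exceeded 1 TPM, with 2.65 TPM on average with K382Q and 2.02 TPM with K382R.

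Pdk4 (chr6:5483351-5496309, minus strand) encodes pyruvate dehydrogenase kinase 4, which turns off pyruvate entry into the citrate cycle in fasting. It was at 328, 322 and 328 TPM with K382Q and at 163, 163 and 158 TPM with K382R. The groups did not overlap, and the libraries within each differed by far less than the gap between them. The means were 326 ± 3.62 and 161 ± 3.32 TPM (SD, n = 3), a 2.02-fold difference, with a log2 fold change of 1.01 that ran from 0.99 to 1.16 over all settings tried.

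Its 3 paralogs, which are not among the described genes, were tested with limma and Benjamini-Hochberg adjustment over all genes tested. The list that holds them was itself chosen with earlier results of these data known, so their p-values are not independent of that choice. Pdk1, the isoform known as a target of HIF-1, rose from 31.1 ± 0.163 to 71.3 ± 0.168 TPM (log2 fold change 1.19, SE 0.0326, adjusted p = 3.97e-07). Pdk3 rose less, from 31.0 to 37.7 TPM (log2 fold change 0.28, adjusted p = 0.00527). For Pdk2 the values were 34.1 TPM with K382Q and 35.6 TPM with K382R, and the 95% interval of the log2 fold change ran from -0.17 to 0.05 in TPM, while its sign was positive on the other 3 scales. The 4 kinases summed to 469 ± 1.53 TPM with K382Q and 259 ± 2.17 TPM with K382R. Pdk4 made up 69.5% ± 0.698 of that sum with K382Q and 62.3% ± 0.948 with K382R (SD, n = 3), the largest part in all 6 libraries.

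The kinases act on the pyruvate dehydrogenase complex. Of 8 genes for its subunits and phosphatases, 3 passed the test higher with K382Q and 0 lower, beside 11.1% and 36.9% of all genes tested, and the median log2 fold change of the list was 0.05 against -0.14 over all genes. The phosphatase subunit Pdp2, which opposes the kinases, rose by 0.26 (adjusted p = 0.00813), the E1 subunit Pdhb by 0.15 (adjusted p = 0.00337) and the E3 subunit Dld by 0.10 (adjusted p = 0.0388). The Dld call was lost under 8 of 16 alternative settings, with adjusted p from 0.000463 to 0.128, and 7 of the 8 genes passed higher after median-ratio scaling, beside 19.8% of all genes on that scale.

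Txnip (chr3:96465273-96469199, plus strand) encodes the thioredoxin-interacting protein, an α-arrestin that limits glucose uptake and whose transcript is known to rise with glucose-6-phosphate and to respond to FoxO factors. It was at 2343, 2391 and 2305 TPM with K382Q and at 1120, 1136 and 1130 TPM with K382R. Every K382Q library had more than every K382R library, with means of 2346 ± 43.4 and 1129 ± 8.19 TPM (SD, n = 3), a 2.08-fold difference. The log2 fold change was 1.06 in TPM, 1.21 after median-ratio scaling and 0.85 after quantile normalization. Txnip was among the most abundant transcripts of these cells, at rank 35 to 38 of all genes in the K382Q libraries and 109 to 113 in the K382R libraries. It made up 81.0% to 81.7% of the summed TPM of the 10 genes with K382Q and 78.4% to 78.8% with K382R, so the 2.01-fold difference of that sum, from 1435 ± 11.6 to 2885 ± 40.6 TPM, was mostly that of Txnip.

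Arrdc4 (chr7:68386743-68398989, minus strand), the α-arrestin that usually follows Txnip in its response to glucose, did not show that pattern. It was at 4.22, 5.75 and 4.21 TPM with K382Q and at 5.00, 4.44 and 4.45 TPM with K382R. The groups overlapped, the means were 4.73 ± 0.884 and 4.63 ± 0.320 TPM (SD, n = 3), and the log2 fold change of 0.02 changed sign in 4 of 13 settings, within -0.12 and 0.15.

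Other α-arrestins, which are not among the described genes, were tested as well. They stand in the same list as the Pdk4 paralogs, so their p-values are not independent of its choice either. Arrdc3, known to act on β-adrenergic receptors, rose from 28.9 ± 1.16 to 64.7 ± 4.80 TPM (log2 fold change 1.15, SE 0.0599, adjusted p = 5.43e-06 by limma with Benjamini-Hochberg adjustment). Arrdc2 rose from 8.76 to 10.7 TPM (log2 fold change 0.28, adjusted p = 0.0409), a call that was lost under 8 of 16 alternatives with adjusted p from 0.00745 to 0.121. Arrdc1 had a log2 fold change of 0.04 with a 95% interval from -0.26 to 0.34, and Arrdc5 was listed at 0 in 5 libraries and not tested. Arrdc1 to Arrdc4 summed to 90.5 ± 3.89 TPM with K382Q and 52.3 ± 1.80 TPM with K382R, and Arrdc3 carried most of that difference.

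**Figure D1:**
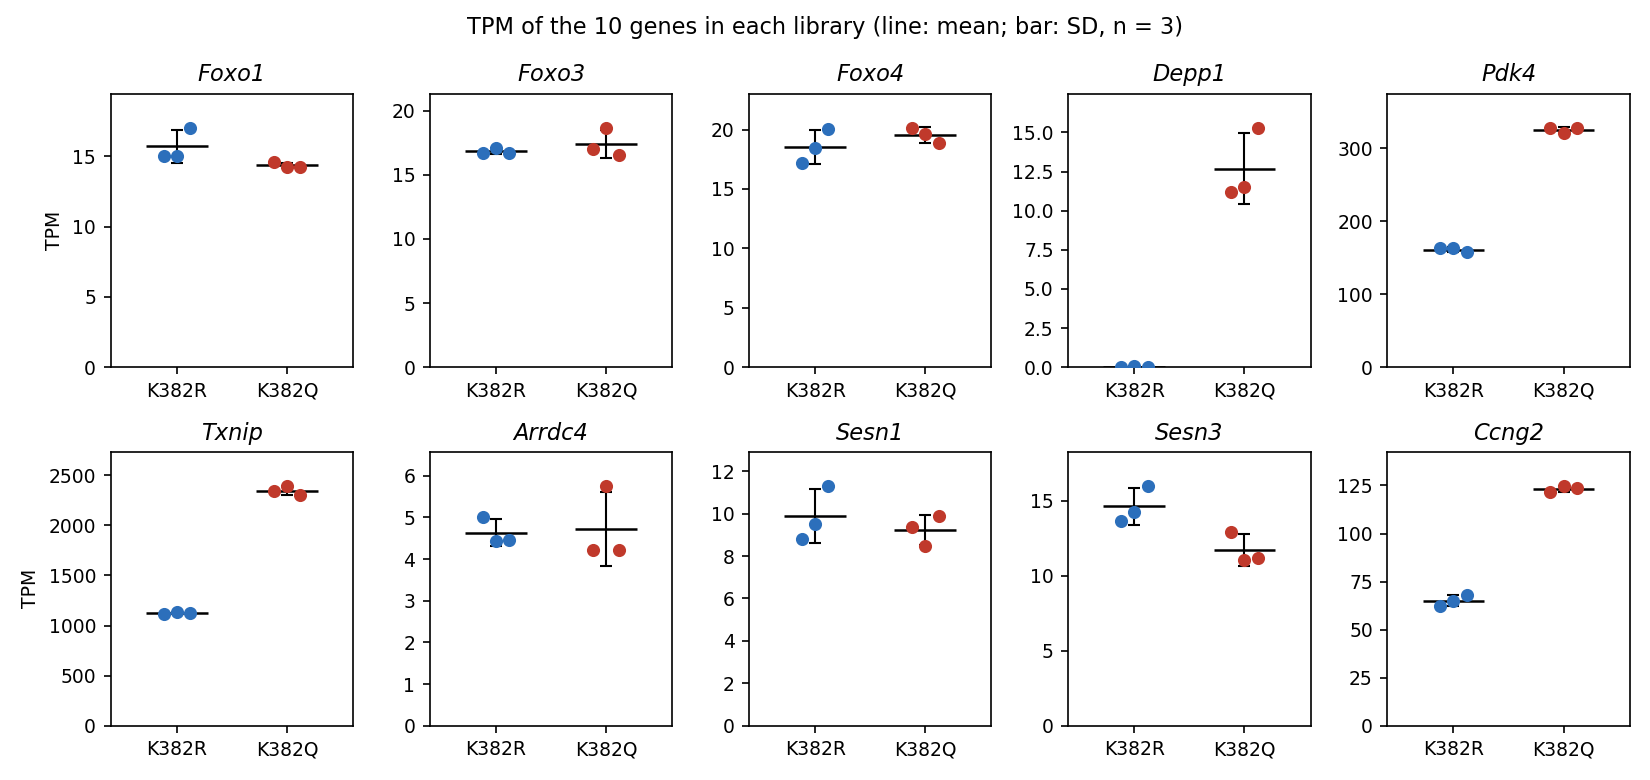
TPM of the 10 genes in each library (vertical axis, starting at 0, 1 panel per gene), with points for the 3 K382R libraries in blue and the 3 K382Q libraries in red, a line at the mean and bars for the SD. The K382Q libraries of Depp1, Pdk4, Txnip and Ccng2 lie above all K382R libraries, while Foxo3, Foxo4, Arrdc4 and Sesn1 overlap and Foxo1 and Sesn3 lie lower.

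Ccng2 (chr5:93415116-93424090, plus strand) encodes cyclin G2, an atypical cyclin that FoxO factors induce and that accompanies exit from the cell cycle. It was at 122, 125 and 123 TPM with K382Q and at 62.2, 65.1 and 67.8 TPM with K382R. The groups did not overlap, with means of 123 ± 1.503 and 65.0 ± 2.79 TPM (SD, n = 3), a 1.89-fold difference and a log2 fold change of 0.92, between 0.89 and 1.07 in all settings tried. Its paralog Ccng1, a p53 target, fell from 138 ± 1.38 to 71.9 ± 2.15 TPM (log2 fold change -0.94, SE 0.0333, adjusted p = 1.10e-06 by limma with Benjamini-Hochberg adjustment). The pair thus exchanged places, since Ccng2 supplied 63.2% ± 0.924 of their sum with K382Q and 32.0% ± 0.735 with K382R (SD, n = 3). The sum itself was 195 ± 1.503 TPM with K382Q and 203 ± 4.12 TPM with K382R.

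The sestrins, which restrain mTORC1 through the GATOR2 complex, did not follow the higher group. Sesn1 (chr10:41685931-41784420, plus strand), known as a p53 and FoxO target, was at 9.35, 8.47 and 9.88 TPM with K382Q and at 8.81, 9.53 and 11.3 TPM with K382R. The groups overlapped, and the log2 fold change was -0.09 in TPM and 0.06 after median-ratio scaling. Sesn1 and Foxo3 both lie on chromosome 10, on opposite strands and 273.416 kb apart, and neither separated the groups in TPM.

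Sesn3 (chr9:14186363-14244397, plus strand), the sestrin most often named as a FoxO target, was at 12.9, 11.02 and 11.2 TPM with K382Q and at 13.6, 14.2 and 15.96 TPM with K382R. The K382Q libraries lay below the K382R libraries, with means of 11.7 ± 1.07 and 14.6 ± 1.21 TPM (SD, n = 3) and a log2 fold change of -0.31. The value stayed negative in every setting tried, between -0.38 and -0.14, but the groups overlapped in FPKM and after both rescalings. Sesn2, a target of the integrated stress response and the most abundant sestrin here, was at 77.8 ± 3.63 TPM with K382Q and 79.2 ± 0.863 TPM with K382R. The 95% interval of its log2 fold change ran from -0.12 to 0.07, its sign was positive on the other 3 scales, and it passed higher after quantile normalization (0.13, adjusted p = 0.0324).

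**Figure D2:**
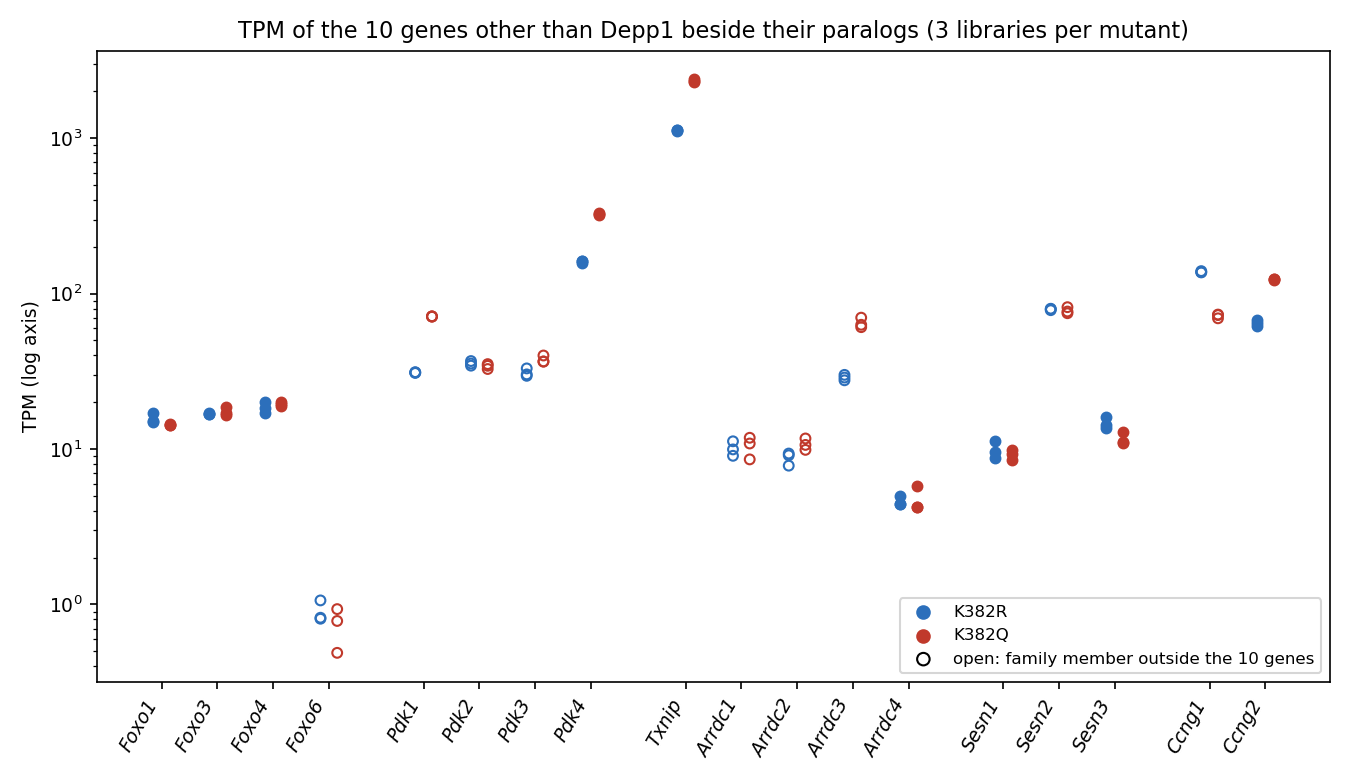
TPM (log axis) of the genes other than Depp1, as filled points, beside their family members, as open points, in the 3 K382R libraries (blue) and the 3 K382Q libraries (red). Pdk1 and Arrdc3 stand apart between the mutants as Pdk4 and Txnip do, and Ccng1 stands apart in the opposite direction to Ccng2. Sesn3 lies somewhat lower with K382Q without overlap, and Sesn1 and Sesn2 overlap.

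Within each mutant the order of the levels was much the same. With K382Q it was Txnip, Pdk4, Ccng2, Foxo4, Foxo3, Foxo1, Depp1, Sesn3, Sesn1 and Arrdc4, where the libraries of Foxo1 and Depp1, and of Depp1 and Sesn3, overlapped. With K382R it was Txnip, Pdk4, Ccng2, Foxo4, Foxo3, Foxo1, Sesn3, Sesn1, Arrdc4 and Depp1, where the libraries of Foxo3 and Foxo1, and of Foxo1 and Sesn3, overlapped. Depp1 was therefore the gene that changed its place, from rank 7 to rank 10, and the other 9 kept their order.

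In numbers, the K382Q and K382R libraries did not overlap for 6 of the 10 genes, 4 of them higher (Depp1, Pdk4, Txnip and Ccng2) and 2 lower (Foxo1 and Sesn3), beside 14.1% and 42.8% of all genes tested. These counts restate how the genes were chosen. After median-ratio scaling 6 genes lay higher without overlap and 0 lower, the 4 above with Foxo3 and Foxo4, beside 25.8% and 26.5% of all genes. Among the genes tested, the log2 fold changes of Pdk4, Txnip and Ccng2 stood at percentiles 98.7, 98.8 and 98.2, those of Foxo1, Sesn1, Arrdc4, Foxo3 and Foxo4 at 51.8, 56.5, 69.2, 72.1 and 75.0, and that of Sesn3 at 26.6.

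**Figure D3:**
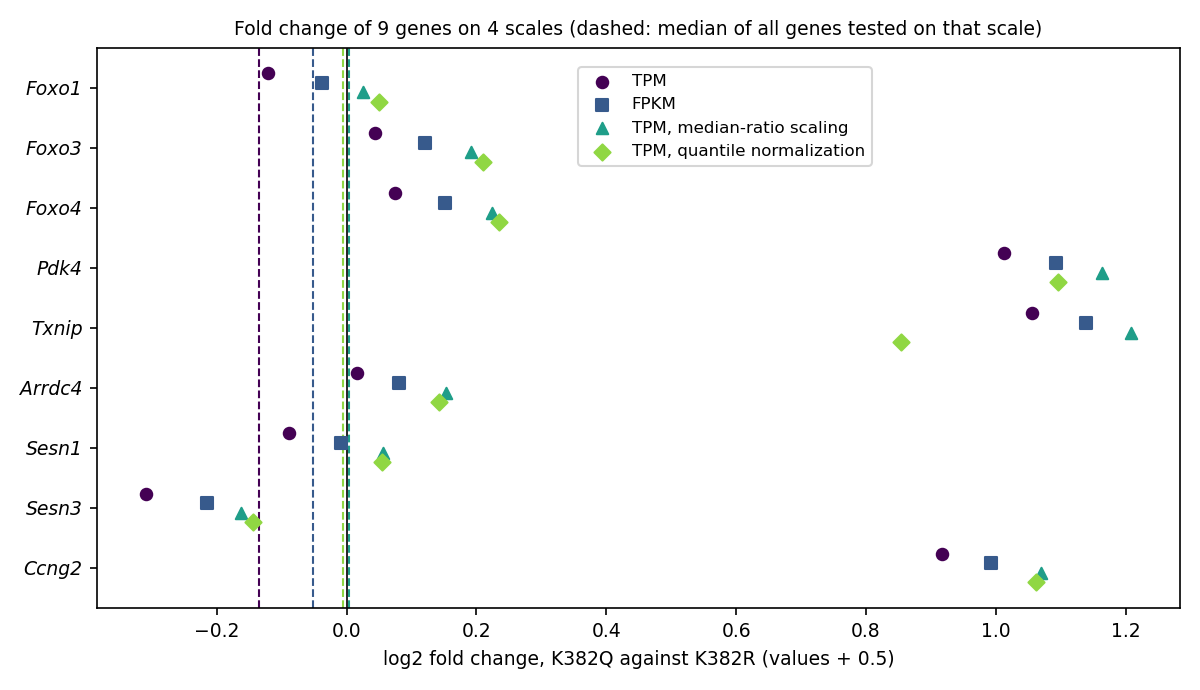
Log2 fold change of K382Q against K382R (horizontal axis, values + 0.5) for the 9 genes other than Depp1 in TPM, FPKM, TPM after median-ratio scaling and TPM after quantile normalization, with dashed lines at the median of all genes on each scale (-0.14 in TPM). Pdk4, Txnip and Ccng2 lie at 0.85 or above on every scale, while Foxo1 and Sesn1 change sign between scales.

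Beyond the 10 genes, FoxO targets named in other tissues moved in both directions. Of 36 such genes, 31 were tested, 9 rose with K382Q and 9 fell by limma with Benjamini-Hochberg adjustment (29% each, beside 11.1% and 36.9% of all genes), and the median log2 fold change was -0.05 against -0.14. With a fold over 2 as well, 2 rose and 1 fell, beside 1.27% and 2.61% of all genes. After median-ratio scaling the split was 11 higher and 4 lower, beside 19.8% and 20.4% of all genes on that scale. The mitophagy receptor Bnip3 rose from 309.5 to 742 TPM (log2 fold change 1.26, adjusted p = 2.51e-07), and the coactivator gene Ppargc1a rose from 1.78 to 4.62 TPM (log2 fold change 1.17, adjusted p = 0.000163). The sphingosine 1-phosphate receptor gene S1pr1, a target known from lymphocytes, fell from 18.8 to 3.04 TPM (log2 fold change -2.45, adjusted p = 9.08e-07).

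The CDK inhibitor genes Cdkn1b and Cdkn1a rose by 0.61 (adjusted p = 7.00e-06) and 0.36 (adjusted p = 5.26e-05) on the log2 scale, and the catalase gene Cat rose by 0.64, from 371 to 579 TPM (adjusted p = 2.34e-06). The mitochondrial peroxiredoxin gene Prdx3 fell by 0.14 (adjusted p = 0.0102), a call lost in FPKM and after both rescalings (adjusted p from 0.129 to 0.791), and the cell cycle repressor gene Rbl2 was at 13.5 TPM with both mutants (adjusted p = 0.999). The autophagy gene Gabarapl1 fell by 0.31 (adjusted p = 0.000964) and the selenium carrier gene Selenop by 0.30 (adjusted p = 0.000169). Over all settings tried the values ran from -0.36 to -0.16 for Gabarapl1 and from -0.32 to -0.14 for Selenop, and both calls were kept. Of the insulin signalling targets, the adaptor gene Irs2 fell by 0.34 (adjusted p = 0.000386), with values from -0.38 to -0.17 over all settings tried. The receptor gene Insr fell by 0.14 (adjusted p = 0.0363). The Insr call was lost under 9 of 16 alternatives (adjusted p from 0.0309 to 0.851), 2 of which, median-ratio scaling and quantile normalization, turned its sign. The lipase gene Pnpla2, at 668 TPM with K382Q and 674 TPM with K382R, had an adjusted p of 0.746, and it passed higher after median-ratio scaling (0.14, adjusted p = 0.00810). The gluconeogenic gene G6pc1 and Igfbp1, targets of FOXO1 in liver, were not tested because too few libraries reached the minimum, and Pck1 was between 0.519 and 1.11 TPM in the 6 libraries.

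The genes that modify FoxO proteins were mostly lower in TPM. Of 29 tested, 1 rose and 18 fell (3.45% and 62.1%, beside 11.1% and 36.9% of all genes), with a median of -0.21 against -0.14, and after median-ratio scaling 4 rose and 11 fell, beside 19.8% and 20.4% of all genes on that scale. Akt1, the main FoxO kinase, fell from 122 to 84.3 TPM (log2 fold change -0.52, adjusted p = 1.88e-05) on every scale, and Sgk1, a glucocorticoid-induced kinase that phosphorylates FOXO3, fell from 76.6 to 44.2 TPM (log2 fold change -0.79, adjusted p = 9.79e-06). Akt2, the isoform most tied to insulin action in adipocytes, was at 68.7 TPM with K382Q and 73.2 TPM with K382R (log2 fold change -0.09, adjusted p = 0.280). Its sign was positive after both rescalings, and it passed lower without K382R replicate 2 (-0.15, adjusted p = 0.0363). The methyltransferase genes Setd7 and Prmt1 fell by 0.88 (adjusted p = 6.21e-06) and 0.71 (adjusted p = 7.44e-06), and the deacetylase gene Sirt1 fell by 0.35 (adjusted p = 0.00330), a call that quantile normalization ended (adjusted p = 0.0573). The 1 gene that rose was Ogt, which encodes the O-GlcNAc transferase, by 0.26 (adjusted p = 0.0191), and its call was lost under 4 of 16 alternatives, 2 of them without K382R replicate 1 (adjusted p = 0.0555) or replicate 3 (adjusted p = 0.0547).

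Genes of a joint list of fasting-response genes and PPAR targets were mostly higher with K382Q, as Pdk4 was. Of 25 listed, 23 were tested, 17 rose and 2 fell (73.9% and 8.7%, beside 11.1% and 36.9% of all genes), and the median log2 fold change was 0.38 against -0.14. The mitochondrial carrier gene Ucp3 rose from 0.350 to 1.41 TPM (log2 fold change 1.18, adjusted p = 0.00131) and the droplet coat gene Plin5 from 20.3 to 42.8 TPM (log2 fold change 1.06, adjusted p = 8.00e-06). The log2 fold change of Ucp3, a low gene, ran from 0.77 to 1.79 over all settings tried, and its call was kept. The fasting factor gene Klf15 rose by 0.74 (adjusted p = 0.000171) and the hormone gene Fgf21 by 0.49 (adjusted p = 0.000406). The exceptions were Cpt1a and Pcx. Cpt1a, the gate of mitochondrial fatty acid import, fell by 0.29 (adjusted p = 0.000573), with values from -0.32 to -0.14 over all settings tried and its call kept. The pyruvate carboxylase gene Pcx fell by 0.15 (adjusted p = 0.00221), close to the median of all genes. Its call was lost in FPKM (adjusted p = 0.0959) and after median-ratio scaling (adjusted p = 0.972). Angptl4, an inhibitor of lipoprotein lipase and a common marker of PPAR activity, was at 1415 TPM with K382Q and 1400 TPM with K382R (adjusted p = 0.767), but it passed higher after median-ratio scaling (0.17, adjusted p = 0.0173) and lower after quantile normalization (-0.14, adjusted p = 0.0105).

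The partners and regulators of Txnip split. Of 11 thioredoxin and Mondo genes, 10 were tested, 4 rose and 5 fell (40% and 50%, beside 11.1% and 36.9% of all genes). The median of the list was -0.03 on the log2 scale, and after median-ratio scaling 4 were higher and 1 was lower, beside 19.8% and 20.4% of all genes. The glucose transporter genes Slc2a4 and Slc2a1, whose proteins TXNIP is known to draw from the surface, rose from 20.1 to 46.2 TPM (log2 fold change 1.18, adjusted p = 6.93e-06) and from 86.1 to 158 TPM (log2 fold change 0.87, adjusted p = 3.80e-06). Mlxipl, the gene of the glucose-sensing factor ChREBP, rose from 5.91 to 10.3 TPM (log2 fold change 0.75, adjusted p = 0.000935). Mlxip, which encodes the related MondoA, and Mlx, which encodes their partner, fell by 0.26 (adjusted p = 0.00859) and 0.20 (adjusted p = 0.0122), and Txn1, the thioredoxin that TXNIP binds, fell by 0.18 (adjusted p = 0.00550), all 3 calls being lost in FPKM and after both rescalings. The thioredoxin reductase gene Txnrd1 fell by 0.54 (adjusted p = 0.000211).

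The mTORC1 list holds the amino acid branch, on which the sestrins act, and also Ddit4, Deptor, Tsc1, Tsc2, Rheb, Mtor and Rptor. Of its 21 genes 20 were tested, 5 rose and 9 fell (25% and 45%, beside 11.1% and 36.9% of all genes). The median was -0.13 against -0.14. After median-ratio scaling 7 were higher and 5 lower, beside 19.8% and 20.4% of all genes. Ddit4, a stress-induced inhibitor of mTORC1 also known as REDD1, rose from 235 to 466 TPM (log2 fold change 0.99, adjusted p = 3.17e-06), and Deptor, which encodes an inhibitory mTOR subunit, rose from 17.2 to 27.4 TPM (log2 fold change 0.65, adjusted p = 4.56e-05). The Rag GTPase gene Rragd rose from 0.859 to 1.48 TPM (log2 fold change 0.54, adjusted p = 0.0194). That call was lost without K382Q replicate 2 (adjusted p = 0.0670) and without K382R replicate 1 (adjusted p = 0.0583). The arginine sensor gene Castor2 fell by 0.53 (adjusted p = 0.000575).

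Dexamethasone was in the medium of both groups, and 8 of 10 glucocorticoid-induced genes rose with K382Q while 2 fell (80% and 20%, beside 11.1% and 36.9% of all genes). Their log2 fold changes had a median of 0.43. The metallothionein gene Mt2 rose from 1121 to 2947 TPM (log2 fold change 1.39, adjusted p = 2.77e-07), the feedback inhibitor gene Errfi1 by 0.55 (adjusted p = 4.12e-05), the clock gene Per1 by 0.52 (adjusted p = 4.12e-05) and the chaperone gene Fkbp5 by 0.46 (adjusted p = 8.39e-05). Cebpd and Nfkbia fell by 0.63 (adjusted p = 0.000335) and 0.39 (adjusted p = 8.23e-05). Sgk1, which fell by 0.79, and Klf15 and Ddit4, which rose by 0.74 and 0.99, are also known to respond to glucocorticoids but stand in other lists. Both counts and directions of this list were the same on all 4 scales. Pdk4 is itself known to respond to glucocorticoids, and the part of dexamethasone in its level was not tested.

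**Figure D4:**
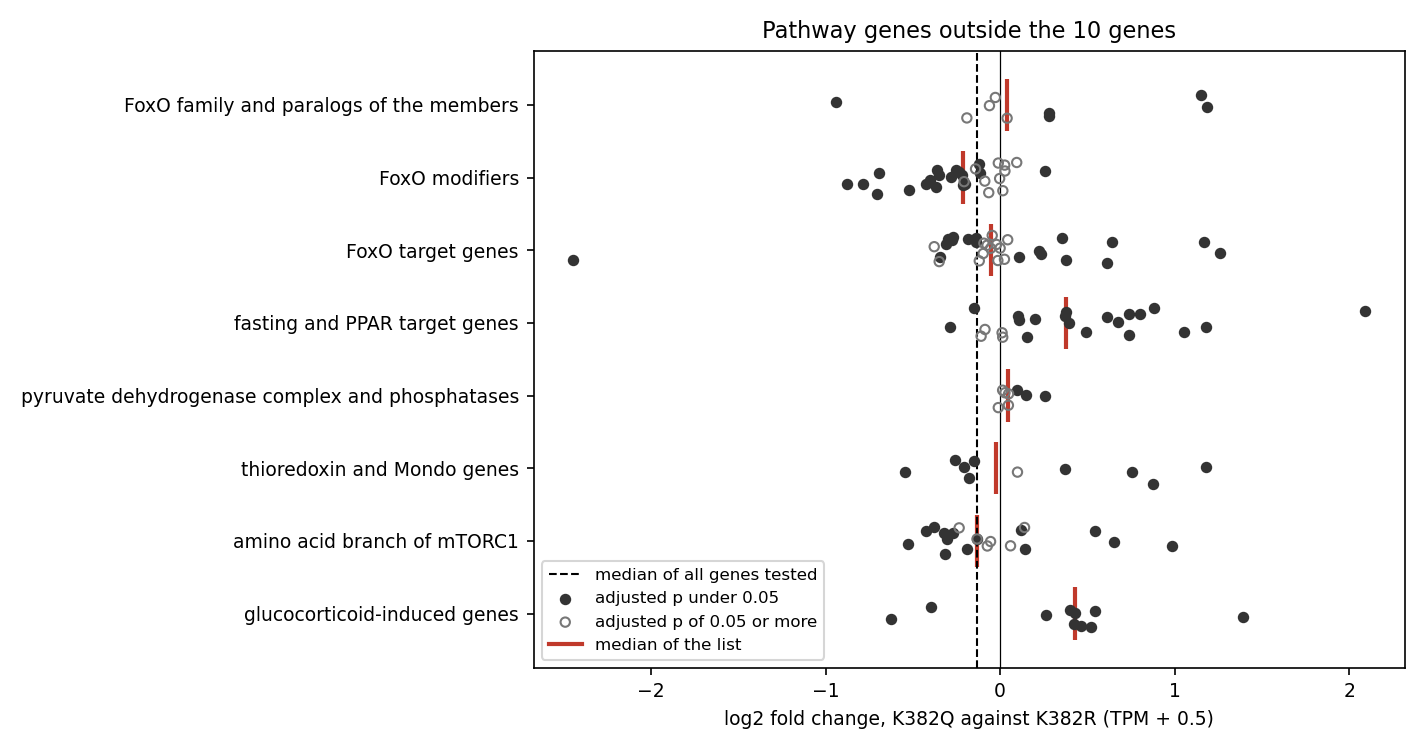
Log2 fold change of K382Q against K382R (horizontal axis, TPM + 0.5) for the tested genes of the 8 pathway lists outside the 10 genes, filled where the adjusted p was under 0.05, with a red bar at each list's median and a dashed line at the median of all genes tested (-0.14). The fasting and glucocorticoid lists have medians of 0.38 and 0.43, and the lists of FoxO targets and modifiers have medians of -0.05 and -0.21.

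Genes with the profile most like that of a described gene over the 6 libraries were found by Pearson's r of log2(TPM + 0.5) among 10643 genes with a mean of at least 5 TPM. For Txnip they included Bnip3 and Mt2, for Pdk4 they were Tlcd3b, Pdk1 and Cox7a2, for Depp1 they included Uqcr10 and Pgk1, and for Foxo1 they were Gm47882, Ssr4 and Alyref, the last with r between 0.987 and 0.991. With 6 libraries in 2 groups such likeness mostly restates the gap between the mutants, and 986 genes had r over 0.9 with Txnip, 973 with Pdk4 and 963 with Depp1, against 157 with Foxo1.

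Aligned bases ranged from 5.95 to 8.15 Gb per library (the ratio of coverage to FPKM), from 5.95 to 7.50 Gb with K382Q and 6.53 to 8.15 Gb with K382R. Pparg, the transduced gene, was at 1200 ± 119 TPM with K382Q and 1611 ± 21.1 TPM with K382R (SD, n = 3, log2 fold change -0.43, adjusted p = 0.000977 by limma), and reads of the vector and of the endogenous gene cannot be told apart. The markers of the labelled cells moved with the comparison. The summed TPM of 8 adipocyte markers ranged from 49560 to 53515 with K382Q and from 40186 to 41466 with K382R, and Fabp4 alone made up 47893 and 37837 TPM of these sums on average. Of the 7 tested 4 rose (Cfd, Cidec, Fabp4 and Retn), Adipoq fell from 360.0 to 148 TPM, Plin1 was at 447 and 462 TPM (adjusted p = 0.210) and Lep was at 0 in all libraries. The summed TPM of 8 preadipocyte and fibroblast markers ranged from 570.2 to 615 with K382Q and from 940.1 to 978 with K382R, all 6 tested fell, and Dpp4 was at 0. The 7 leukocyte markers summed to 3.46 to 4.69 TPM with K382Q and 3.35 to 5.18 TPM with K382R, with Adgre1 and Cd3e at 0 in all libraries, and the 5 endothelial markers to 1.63 to 2.25 and 1.69 to 1.82 TPM. The part of the adipocyte and preadipocyte markers, of the Pparg level and of depth in the levels of Depp1, Pdk4, Txnip and Ccng2 was not tested, and in these bulk libraries fewer cells of a type and less RNA per cell cannot be told apart.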

How the data were processed

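RNA of 6 samples labelled as biological replicates, 3 per PPARγ2 mutant, was extracted with an RNeasy kit and made into NEBNext Ultra libraries. The authors trimmed reads with TrimGalore 0.6.7, aligned them to GRCm39 with HISAT2 2.2.1, handled alignments in SAMtools 1.14 and estimated gene levels by StringTie 2.2.1. The annotation release and the strand setting are not given in the sources used here. The deposited table of each library lists 56884 gene IDs with the authors' TPM, FPKM and coverage (mean read depth per base). The 3 to 5 repeated rows per library were summed. No counts were used, so depth is known only as aligned bases.

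Genes with at least 0.5 TPM in 3 or more libraries were tested with limma 3.58.1 (R 4.3.3, intensity trend) on log2(TPM + 0.5), K382Q against K382R, with Benjamini-Hochberg adjustment over 15426 genes. A fold change on this scale understates the change of low genes. Values are means ± SD (n = 3). On simulated data 200 of 200 genes with an inserted change were recovered, with 12 false calls among 15227 genes. In the real libraries 7415 of 15426 genes had an adjusted p under 0.05, so the simulation does not bear on changes spread so widely. The sizes of the inserted changes are not given here, so it does not bear on the recovery of small changes either.

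The 10 genes, the pathway lists and the markers were chosen with earlier results of these data known. Named were the 10 genes, their paralogs, of every other list the 3 genes with the largest absolute log2 fold change among those passing, family members and partners of the 10 genes, Pparg, the nearest patterns and the markers, and some further list genes were named after their values were seen. Promoter windows of 250 bases were read from GRCm39 upstream of GENCODE canonical transcripts, where all 10 genes matched by symbol. Other pseudocounts, filters, FPKM, median-ratio and quantile scaling, array weights, no intensity trend, a replicate block, a fold of 1.5 and leaving out each library were tried. Some genes that the naming rule would include are not reported here.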

Additional observations from a re-analysis of the deposited data

How the results depend on the processing

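With an adjusted p under 0.05 and a fold over 2, 599 genes were called, 196 higher and 403 lower, against 287 and 296 after median-ratio scaling. Their number was 443 with a pseudocount of 1, 889 with 0.1, 379 in FPKM, 1864 with a fold over 1.5 and 611 to 646 without 1 library. The share of higher genes among those with an adjusted p under 0.05 was 23.2% in TPM, 36.4% in FPKM, 47.7% after quantile normalization and 49.2% after median-ratio scaling, which moved the median of all genes from -0.14 to 0.0032. Of the pyruvate dehydrogenase list 3 genes passed in TPM, 5 in FPKM and 7 after either rescaling, and of the thioredoxin and Mondo list 9 in TPM and 5 on each of the other scales. Signs turned for Foxo1 (0.0256 after median-ratio scaling, 0.0494 after quantile normalization), Akt2 (0.0634 and 0.0717), Insr (0.0113 and 0.0171), Pdk2 (0.0215 in FPKM, then 0.0889 and 0.104), Sesn2 (0.0558 in FPKM, then 0.124 and 0.134), Pnpla2 (0.0712 in FPKM, 0.139 after median-ratio scaling), Prdx3 (0.0117) and Pcx (0.00168), both after median-ratio scaling, and Angptl4 (-0.137 after quantile normalization), and Sesn1 turned after both rescalings (at most 0.0563). Leaving out 1 library turned the sign of Foxo3 (-0.00568 to 0.0791), Sesn1 (-0.163 to 0.00726), Arrdc4 (-0.119 to 0.0839), Rbl2 (-0.0290 to 0.0415), Arrdc1 (-0.0528 to 0.167), Angptl4 (-0.0216 to 0.0376), Pnpla2 (-0.0235 to 0.00402) and Sesn2 (-0.0642 to 3.48e-05). The cause was not tested. Same-numbered libraries deviated together with r of -0.018, 0.051 and 0.022, so the numbers were not taken to pair them. With the replicate block 604 genes were called, and Arrdc2 (adjusted p = 0.0839), Dld (0.0638) and Insr (0.0745) no longer passed. Of 1122 values of 72 genes followed under the alternatives, 1016 kept their direction and side of the threshold or, for the 10 genes, moved by less than the spread between libraries, and Depp1, Pdk4, Txnip and Ccng2 were higher with K382Q in all. Precision is limited by 3 libraries per mutant and by unknown read counts.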
